A study of Mus musculus with 4 samples.

Results

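HBC1 is 1 of the 2 groups of horizontal basal cells (HBC1 and HBC2) in a droplet-based single-cell RNA-seq of the main olfactory epithelium, the sensory tissue of the nasal cavity. Its members were the cells to which the study's own annotation gave that name, and there were 210 of them among 15859 retained cells. The tissue came from 4 untreated male C57BL/6 mice aged 8 weeks, housed in groups of 4, with 1 library per mouse and no second condition. Cells were sorted as nucleated and live (Hoechst-positive and DRAQ7-negative), so the gate selected no cell type. All 4 mice contributed HBC1 cells, with 74, 29, 53 and 54 in mice 1 to 4.

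Horizontal basal cells are flat epithelial cells that rest on the basal lamina below the neurons and the supporting cells. They are a reserve of stem cells that divide rarely in the intact tissue and can rebuild neuronal and non-neuronal cells after injury. They are known by the paired keratins Krt5 and Krt14 and by the transcription factor p63 (Trp63), which holds them in the undifferentiated state, and they attach to the basal lamina through hemidesmosomes. Above them lie globose basal cells (GBC), the dividing precursors of neurons, while sustentacular cells (Sus) support the neurons at the surface and Bowman's glands secrete the mucus that covers it.

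HBC1 made up 1.65%, 0.781%, 1.76% and 1.16% of the retained cells of mice 1 to 4 (mean 1.34% ± 0.455, SD, n = 4). Among cells other than mature neurons, immature neurons and immediate neuronal precursors the share was 6.48% ± 1.49. Among HBC1 and HBC2 cells together it was 28.9% ± 3.27, so HBC2 was the larger group in every mouse. The lowest share of retained cells was that of mouse 2, whose 95% Wilson interval (0.545% to 1.12%) covered counting error only. The HBC1 cells held 1039332 unique molecular identifiers (UMIs), each of which stands for 1 captured transcript. Their median depth was 4619 UMIs and 2079 genes per cell, and the median per mouse ran from 3319 in mouse 4 to 5484 in mouse 1. The median of HBC2 was 7187 UMIs. Mitochondrial transcripts made up a median of 2.20% of the UMIs of HBC1 cells.

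Levels are given as UMIs of a gene per 10000 UMIs, from the sum over the HBC1 cells of each mouse, so that the mouse and not the cell was the replicate. Only the 3′ end of a transcript was read, and a level therefore does not scale with the length of the gene. Differences are means over the 4 mice of the within-mouse difference on the scale of log2(UMIs per 10000 + 0.1), which understates the change of genes near 0. The groups had been drawn from these same counts, so no test was made between HBC1 and another type, and all that follows on their differences is a description. A gene was counted as higher or lower when the mean difference was at least 2-fold and the 4 mouse values of the 2 types did not overlap. A value per type and mouse is an average over its cells, and fewer cells with a transcript and fewer transcripts per cell give the same average.

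The 4 markers by which basal cells were checked did not all point the same way. Krt5 (chr15:101707070-101712898, GRCm38) stood at 24.7, 20.4, 23.1 and 17.1 UMIs per 10000 in HBC1 of mice 1 to 4, against 5.94 to 8.10 in HBC2. The difference was 1.53 ± 0.15 on the log2 scale, and the HBC1 values lay above those of all other types. Trp63 (chr16:25683763-25892102) stood at 7.14, 6.56, 8.77 and 5.70, and the mean of 7.04 ± 1.30 compared with 1.75 ± 0.422 in HBC2, a difference of 1.96 ± 0.36. Every HBC1 mouse was again above every mouse of the other 9 types. Krt14 (chr11:100203162-100207548) had 20.3, 14.4, 19.0 and 14.3 in HBC1 and a mean of 8.47 ± 2.14 in HBC2. This difference, 1.02 ± 0.58, lay at the 2-fold limit and was no longer counted without mouse 1, where it was 0.93, or without mouse 3, where it was 0.79.

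Krt15 (chr11:100131758-100135928), also a basal keratin, went the other way. Its HBC1 levels were 0.684, 2.38, 0.443 and 1.32, and its HBC2 levels were 15.0, 2.48, 4.38 and 5.51 in the same mice. The groups did not overlap, but in mouse 2 they lay next to each other. There 1 cell held 24 of the 101 Krt15 UMIs of all HBC1 cells, and without it the level of mouse 2 was 0.688. HBC1 was thus a Krt5+ Trp63+ Krt14+ group with little Krt15. Since the study's groups were drawn from these counts and named by such markers, this describes the label and is no independent check of it.

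**Figure D1:**
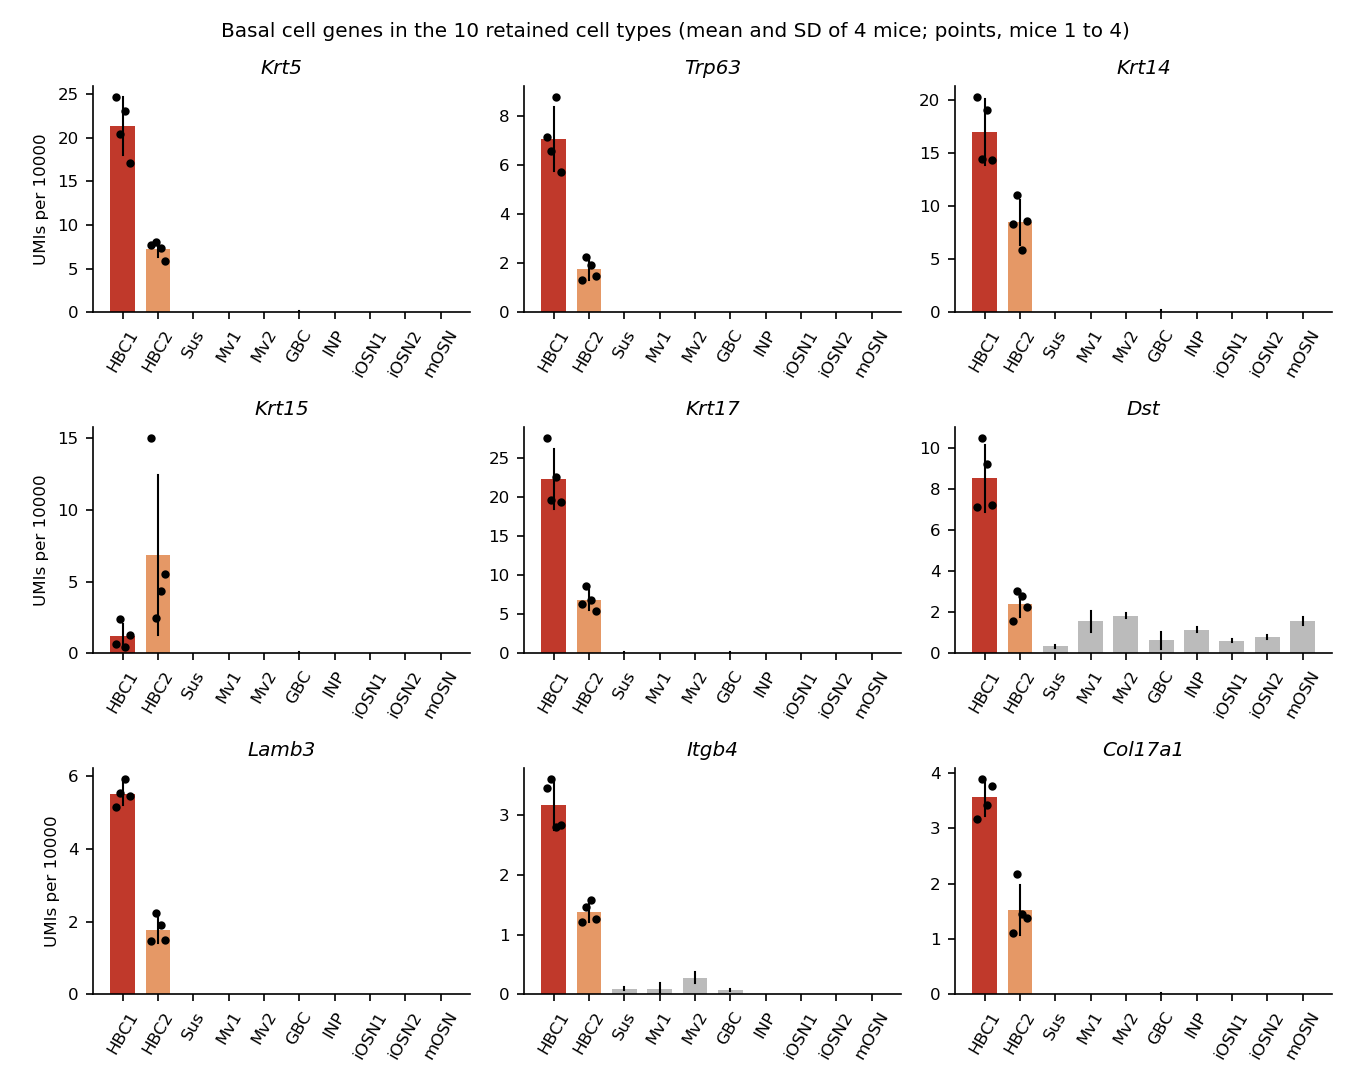
Levels of basal cell genes in the 10 retained cell types, with cell types on the x axis and UMIs per 10000 on the y axis. Bars give the mean, error bars the SD and points the 4 mice, and Krt5 reached 17.1 to 24.7 in HBC1 and 5.94 to 8.10 in HBC2 while Krt15 was higher in HBC2.

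The markers were also counted cell by cell. A Krt5 UMI was found in 208 of 210 HBC1 cells (99.0%, 95% Wilson interval 96.6% to 99.7%), a Krt14 UMI in 195 (92.9%), a Trp63 UMI in 189 and a Krt15 UMI in 42 (15.2% to 25.9%). The corresponding shares of HBC2 cells were 72.8%, 67.6%, 52.4% and 45.4%. All 3 of Krt5, Trp63 and Krt14 were found in 176 HBC1 cells (83.8%), and no HBC1 cell lacked all 3, whereas 134 of 544 HBC2 cells did. Droplets pick up free transcripts, and mature olfactory sensory neurons (mOSN), which should lack basal keratins, gave the background. A Krt5 UMI was found in 0.314% of them at a median of 4861 UMIs per cell, and a Trp63 UMI in 0.0951%. No Trp63 UMI was found in 336 Sus cells, which allows a share of cells with a UMI of up to 0.893% and sets no limit on cells that express the gene.

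The shares of cells with a UMI kept their order between HBC1 and HBC2 at equal depth. With every cell thinned to 2000 UMIs, which kept 201 HBC1 and 531 HBC2 cells, a Krt5 UMI was found in 96.0% of HBC1 and 62.5% of HBC2 cells. For Trp63 the thinned shares were 72.1% and 28.8%, for Krt14 86.6% and 55.9%, and for Krt15 11.9% and 36.5%.

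The other keratins divided HBC1 from the surface cells. The 55 keratin genes of the files were added as a group after values had been seen, and 39 of them had no UMI in HBC1. Krt17 (chr11:100256217-100261029), which accompanies Krt5 and Krt14 in basal layers, had 27.6, 19.7, 22.6 and 19.4 in HBC1 and 6.82 ± 1.32 in HBC2. It was found in 99.5% of HBC1 cells. The keratins of simple epithelia were divided in comparison with Sus cells. Krt8 was lower in HBC1, at 3.04 ± 0.380 against 27.6, and so was Krt18, at 8.49 ± 1.75 against 46.9. Krt7 and Krt19 were higher in HBC1 than in Sus. A Krt18 UMI was nevertheless found in 89.0% of HBC1 cells, a share not set against background. Krt19 did not separate the basal groups, at 6.34 ± 0.375 in HBC1 and 6.86 ± 2.30 in HBC2. The list of squamous and suprabasal genes, which includes Krt13, Krt6a and Krt10, summed to 0.476 UMIs per 10000 and 6 of its 8 genes were at 0.

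Some genes of the attachment to the basal lamina were higher in HBC1 than in HBC2. Of all 3914 genes compared between the 2 groups, 318 were higher in HBC1 (8.12%) and 216 were lower (5.52%). Of 15 basement membrane and hemidesmosome genes, 10 passed the minimum level and 5 of those were higher, with a median difference of 1.00 beside 0.05 over all genes. Dst, which links the hemidesmosome to keratin filaments, had 7.16, 10.5, 9.24 and 7.25 in HBC1 and 1.59 to 3.06 in HBC2. Lamb3, the laminin beta 3 chain, had 5.16, 5.55, 5.94 and 5.46 against 1.46 to 2.23, and Lama3, its alpha partner, 0.752 ± 0.206 against 0.182 ± 0.0824. Col17a1, the transmembrane collagen of the hemidesmosome, stood at 3.56 ± 0.332 against 1.53 ± 0.455, and the integrin Itgb4 at 3.17 ± 0.417 against 1.38 ± 0.174. All 5 genes were also above every other type. With TMM factors 12 of the 86 named genes counted against HBC2 no longer met the rule, namely Col17a1, Itgb4, Krt14, Scgb1c1, Jag2, Dll1, Fzd1, Bmp7, Klf4, Ifitm3, Nfkb1 and Cxcl14. With cells thinned to 2000 UMIs 14 did not, namely Krt14, Col17a1, Itgb4, Dll1, Erbb3, Fzd1, Bmp7, Klf4, Aldh3a1, Ifitm3, Isg15, Nfkb1, Csf1 and Coch. The integrin Itga6, the partner of Itgb4, was at 0.948 ± 0.153 and 0.823 ± 0.0802 and did not separate the groups.

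The rest of the basal list differed less. Of 12 further basal cell genes, 11 passed the minimum and 4 were higher than in HBC2, beside 8.12% of all genes. These 4 were all genes of the hemidesmosome or of laminin and were already counted in the basement membrane and hemidesmosome list. The median of the further basal cell genes was 0.70. The adhesion molecule Icam1 (4.20 ± 0.207 against 2.61 ± 0.139) and Egfr, the receptor of epidermal growth factor (1.21 ± 0.0719 against 0.593 ± 0.134), were below the 2-fold limit on the scale of log2(UMIs per 10000 + 0.1). So was Aqp3, a water and glycerol channel, at 27.6 ± 3.01 against 17.2 ± 2.90. Against Sus cells 10 of the 11 were higher in HBC1, beside 17.2% of all genes compared, and against the microvillar group Mv2 9 of 11, beside 16.1%.

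HBC2 was not uniform, and the differences between the groups are therefore also given for a narrower choice of its cells. In the study's first clustering, made before poor cells were removed, 209 of the 210 HBC1 cells lay in 1 joint cluster of horizontal basal cells. Of the 544 HBC2 cells 411 lay in the same cluster, but 132 lay in the sustentacular cluster. A Krt5 UMI was found in 95.1% of the 411 cells and in 3.03% of the 132, of which 98.5% had a UMI of the sustentacular enzyme Cyp2a5. The groups were therefore also compared over cells with a Krt5 UMI only, a choice made after the data had been seen, which left 208 HBC1 and 396 HBC2 cells.

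Among Krt5+ cells many differences were smaller, and 29 of the 86 named genes counted against HBC2 no longer met the rule. The Krt5 difference was 0.86, that of Krt14 0.37, that of Krt17 1.04 and that of Trp63 1.34, of which Trp63 and Krt17 still met the rule. Since cells were kept for a Krt5 UMI, the smaller Krt5 difference follows in part from that choice. In the 411 HBC2 cells of the joint cluster, not chosen by Krt5 UMIs, Krt5 was at 11.6 ± 1.27, beside 11.7 ± 1.10 in Krt5+ HBC2 cells. Among Krt5+ cells Itgb4, Col17a1 and Lamb3 no longer met the rule, while Dst and Lama3 did. Of 11 further basal cell genes compared there, only Dst was higher, beside 8.6% of all genes, and the median was 0.49. Krt15 remained lower, at −2.95. In this comparison 327 of 3801 genes were higher (8.6%) and 149 were lower (3.92%). Of the 318 genes counted as higher over all cells, 244 (76.7%) were also higher among Krt5+ cells, where they made up 74.6% of the calls. Of the 216 lower genes, 107 (49.5%) were shared, or 71.8% of the lower genes of Krt5+ cells.

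HBC1 was next set against all other types at once. Of 7124 genes compared with the 9 other types, 166 (2.33%) lay above every mouse of every other type by at least 2-fold. The next highest type was HBC2 for 107 of them (64.5%), Sus for 18, Mv2 for 13 and GBC for 11. The largest difference was that of Col23a1 (chr11:51289920-51583918), a membrane-bound collagen, with 3.01, 3.96, 3.68 and 2.97 in HBC1 and at most 0.127 in any mouse of GBC, the next type. The difference was 4.35 ± 0.40. A UMI of it was found in 71.0% of HBC1 and 3.12% of HBC2 cells.

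Nrcam (chr12:44328885-44601964), a neuronal cell adhesion molecule of the immunoglobulin family, gave the widest gap between the basal groups among the genes higher in HBC1. Its HBC1 levels were 7.67, 8.14, 8.46 and 7.16, and its HBC2 level was 0.0156 ± 0.00846, a difference of 6.10 ± 0.14. A Nrcam UMI was found in 93.3% of HBC1 and 1.10% of HBC2 cells, and among Krt5+ cells the difference was 6.11. Each of the 4 basal markers differed by less.

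Igfbp2 (chr1:72824503-72852474), a secreted binding protein of insulin-like growth factors, stood at 20.2, 14.5, 16.0 and 12.7 in HBC1. Its mean of 15.9 ± 3.19 compared with 0.602 ± 0.409 in HBC2 and 1.00 in GBC, and 98.6% of HBC1 cells held a UMI. Apoe (chr7:19696109-19699188), the lipid carrier apolipoprotein E, was the second most abundant transcript of HBC1 after Malat1 when mitochondrial and ribosomal protein genes are left aside. It had 75.5, 63.4, 68.4 and 78.4 in HBC1, 13.3 ± 1.40 in HBC2 and 0.313 in Sus. Among Krt5+ cells both genes still met the rule, with smaller differences. That of Igfbp2 was 4.11 in place of 4.63, and that of Apoe 1.75 in place of 2.41.

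The remaining genes of the 20 furthest above all other types had mean levels from 0.671 (Npl) to 8.51 (Hpgd) UMIs per 10000 and differences from 2.57 to 4.19. Extracellular matrix genes among them were the small proteoglycans Fmod (1.76 ± 0.304) and Ogn (2.77 ± 1.10) and the matrix protein Vit (3.21 ± 0.548), of which the highest value in any mouse of any other type was the 0.578 of Ogn in HBC2. Signals to other cells were the semaphorins Sema3d (3.41 ± 0.603) and Sema5a (3.62 ± 0.538), known from axon guidance, the chemokine Cxcl12 (1.51 ± 0.502) and the cytokine Il6 (0.721 ± 0.431). Il6 rested on few cells, since 11.9% of HBC1 cells held a UMI of it. With cells thinned to 2000 UMIs Cxcl12 no longer met the rule against all types.

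Enzymes, transporters and inhibitors were among the other genes furthest above all types. Car12, a membrane-bound carbonic anhydrase, stood at 5.70 ± 1.33. Car10, a carbonic anhydrase relative without that activity, stood at 0.944 ± 0.194 and had no UMI in HBC2, so that it was at least 144-fold higher in HBC1 (limit of 3 UMIs over the group). Srd5a2, a steroid 5-alpha-reductase, was at 7.56 ± 1.51, and Hpgd, which degrades prostaglandins, at 8.51 ± 2.12. Abca4, a retinoid transporter best known from photoreceptors, was at 4.55 ± 0.959, and Slc29a1, a nucleoside transporter, at 3.24 ± 0.771. G0s2, an inhibitor of triglyceride lipase, was at 2.38 ± 0.321, and Deptor, an inhibitor of mTOR, at 1.58 ± 0.316. Of the 4 last genes the HBC2 means lay between 0.107 and 0.216.

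**Figure D2:**
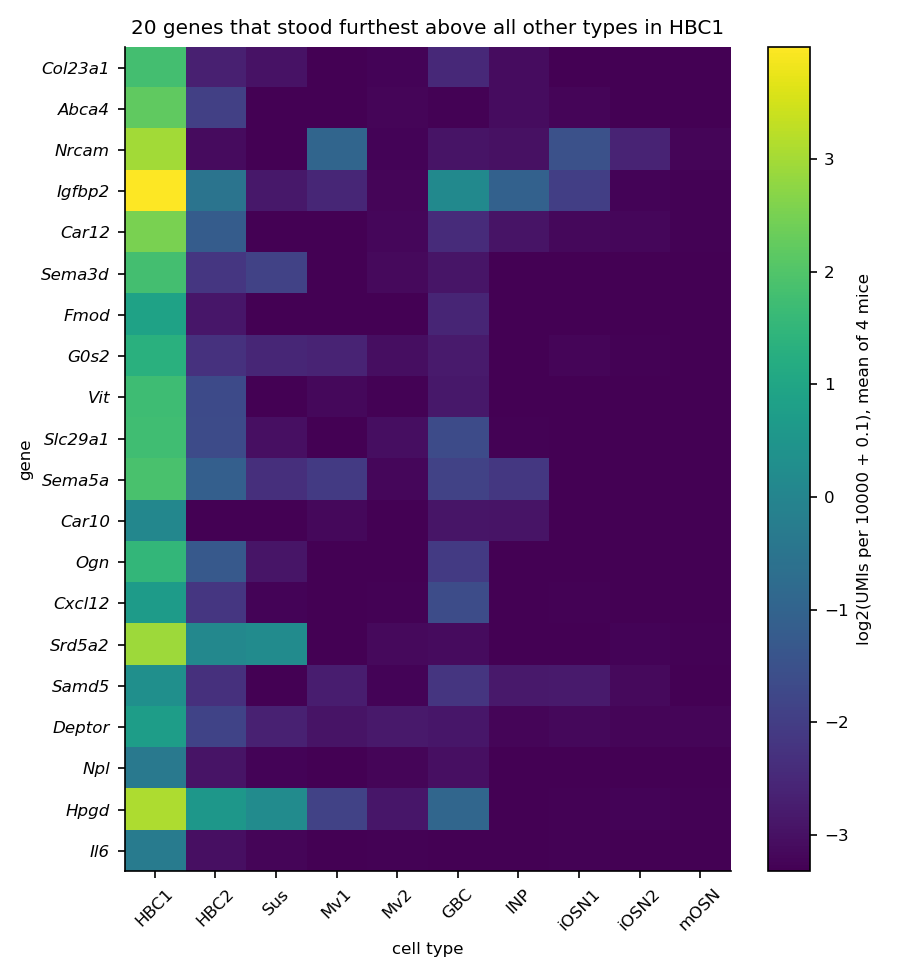
Mean level over 4 mice, on the scale of log2(UMIs per 10000 + 0.1), of the 20 genes that stood furthest above all other types in HBC1, by gene (y axis) and cell type (x axis). The HBC1 column is the only one that is bright for all 20 genes, since the genes were chosen for that.

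Glandular genes were present in part. Of 13 Bowman gland and duct genes, 9 had no UMI in HBC1, among them Ltf (lactoferrin) and Muc5b, and the list turned on 4 genes. Of 5 compared with HBC2, Sox9 and Scgb1c1 were higher, beside 8.12% of all genes. Bpifa1 and Ltf were lower, beside 5.52%, and the median was 0.26. Among Krt5+ cells 2 of 4 were higher, beside 8.6%, and 1 was lower, beside 3.92%, with a median of 0.89. Scgb1c1, a secretoglobin of gland and sustentacular cells, stood at 64.8, 46.3, 50.7 and 56.7 in HBC1, against 28.0 ± 12.7 in HBC2, 358 ± 22.8 in Sus, and a UMI of it was found in 95.2% of HBC1 cells and 5.94% of mOSN. Sox9, a transcription factor of gland and duct cells, had 3.34, 2.16, 2.11 and 3.58 against 0.489 to 0.991 in HBC2 and 5.83 ± 0.179 in Sus. Aqp5, a water channel, was at 6.01 ± 0.704 and 5.01 ± 0.754 in the 2 basal groups and at 16.6 ± 1.88 in Sus. Scgb1c1 and Sox9 were thus between HBC2 and Sus in level, and both met the rule among Krt5+ cells too. The Sox9 difference to Sus, −1.07, was below 2-fold without mouse 2 (−0.95) or mouse 3 (−0.96). The Scgb1c1 difference over all cells, 1.07 ± 0.75, was below 2-fold without mouse 4, at 0.75.

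Secreted gland and respiratory products were at the other extreme. Bpifa1 (chr2:154142880-154149219), an airway secretory protein, had 0.304, 0, 0.443 and 0.188 in HBC1 and a mean of 165 ± 120 in HBC2, a difference of −8.81 ± 0.40, and of −7.47 among Krt5+ cells. A UMI of it was found in 7.62% of HBC1 cells, beside 9.79% of Mv2 and 9.23% of Sus cells. Whether these UMIs are background was not tested. Ltf was at least 68.8-fold lower in HBC1 than in HBC2, but did not meet the rule among Krt5+ cells. Of 4 respiratory secretory and ciliated genes compared, 3 were lower, beside 5.52% of all genes. The remaining gene, Ccdc153 of ciliated cells, did not meet the rule. Among Krt5+ cells Ccdc153 was higher, beside 8.6% of all genes, and the other 3 stayed lower, beside 3.92%. Cyp2f2 was at 9.86 ± 1.51 against 43.2 ± 2.95, the antimicrobial lectin Reg3g at 0.492 ± 0.410 against 37.9 ± 21.6, and the trefoil peptide Tff2 was at least 67.8-fold lower. The median of these 4 differences was −3.19, or −4.08 with Tff2 at its bound. Of 10 mucus and secreted proteins compared, 2 were higher (Scgb1c1 and the chaperone clusterin, Clu), beside 8.12% of all genes, and 7 were lower, beside 5.52%. Among Krt5+ cells 7 were compared, of which 2 were higher, beside 8.6% of all genes, and 4 were lower, beside 3.92%.

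Part of the sustentacular list was lower in HBC1 than in HBC2. Of 10 compared with HBC2, 6 were lower, beside 5.52% of all genes, and the median was −2.58. Among Krt5+ cells, which leave out nearly all of the 132 HBC2 cells of the sustentacular cluster, 0 of 8 were lower, beside 3.92% of all genes, and Ermn was higher. Cyp2g1, an olfactory cytochrome, had 0.0506, 0, 0.0682 and 3.34 in HBC1 and 71.4 ± 8.73 in Sus, and 1 cell of mouse 4 held 71 of the 75 Cyp2g1 UMIs of all HBC1 cells. The same cell, at 16456 UMIs, held 103 of 174 UMIs of Cyp2a5, 47 of 58 of Sec14l3 and 25 of 25 of Cyp1a2. Cbr2 of the same list, a carbonyl reductase, was at 49.5, 58.6, 53.3 and 48.1 in HBC1, 70.8 ± 9.50 in HBC2 and only 1.69 ± 0.429 in Sus, and a UMI of it was found in 210 of 210 HBC1 cells.

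Of 21 odorant-metabolising enzymes compared with HBC2, 15 were lower in HBC1, beside 5.52% of all genes, and 1 was higher, the acyl-CoA synthetase Acsm4, and the median was −2.08. The retinol and alcohol dehydrogenase Adh7 stood at 0.961 ± 0.214 against 12.0 ± 1.52, and the retinaldehyde dehydrogenase Aldh1a1 was at 0 and at least 65.1-fold lower. Among Krt5+ cells 8 of 16 were lower, beside 3.92% of all genes, and 3 were higher, beside 8.6%. The glutathione transferase Gstm1, at 47.7 ± 3.93 and 43.5 ± 10.7, was among the 10 most abundant transcripts of HBC1 and did not separate the groups over all cells.

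**Figure D3:**
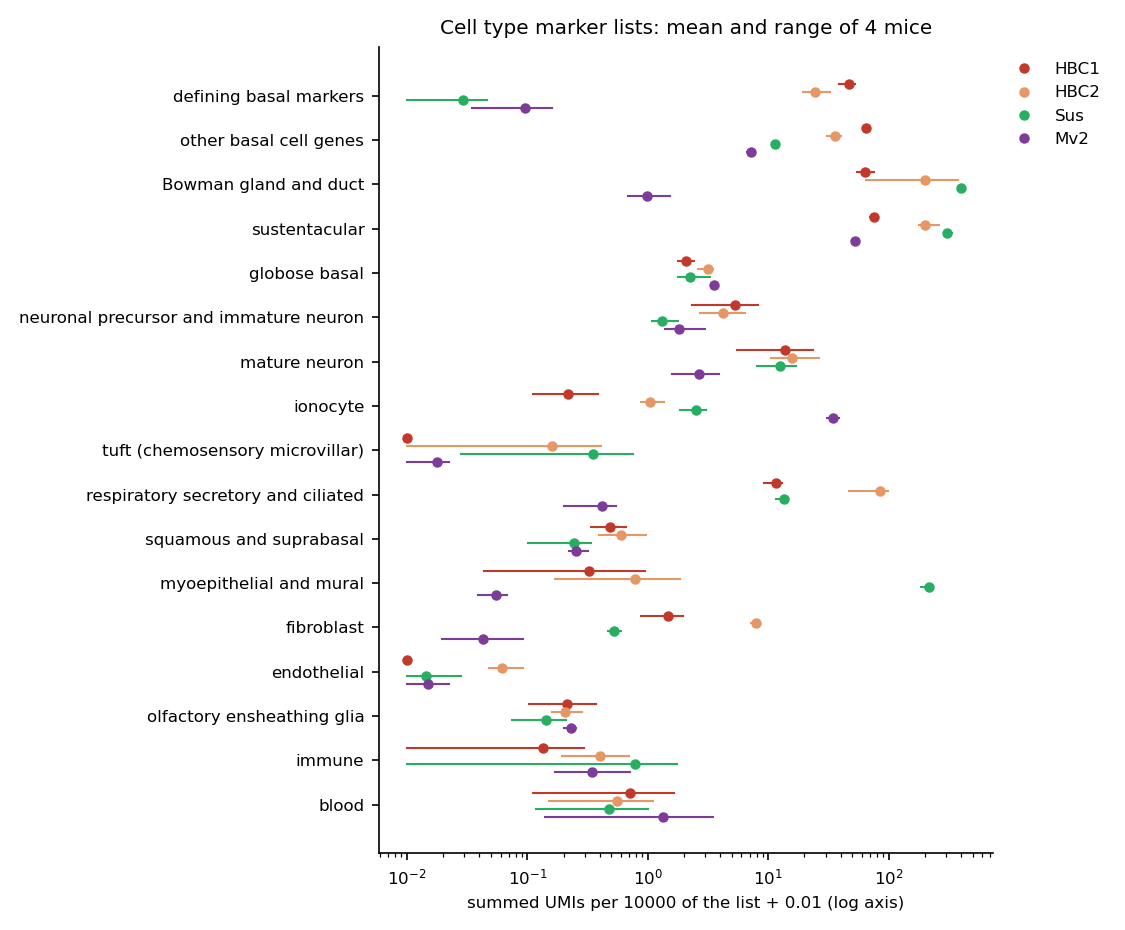
Summed level of each cell type marker list (y axis) in HBC1, HBC2, Sus and Mv2, in UMIs per 10000 plus 0.01 on a log axis, with points for the mean and lines for the range of 4 mice. HBC1 lay highest for the basal lists, with a sum of 46.6 for the defining markers. Its means lay below those of HBC2 and Sus for the gland and sustentacular lists. For the gland list the mouse ranges of HBC1 (54.4 to 75.4) and HBC2 (64.3 to 379) overlapped.

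Lists of several other cell types were near 0 in HBC1. The tuft cell list and the endothelial list had no UMI, the immune list summed to 0.126, the ionocyte list to 0.207, the olfactory ensheathing glia list to 0.205, the mural list to 0.317 and the blood list to 0.705 UMIs per 10000. The fibroblast list summed to 1.47 and consisted almost wholly of Dcn, the proteoglycan decorin, at 1.46 ± 0.453, whereas Col1a1, Col3a1, Lum and Pdgfra were at 0 and Col1a2 was found in 1 cell. Dcn was at 7.79 ± 0.618 in HBC2, where it was found in 79.2% of cells. The GBC list summed to 2.06 in HBC1, near the 2.25 of Sus and far below the 48.5 of GBC.

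Mature neuron transcripts of HBC1 lay mostly in a few cells. The 7 mature neuron markers summed to 5.49, 12.8, 13.4 and 23.6 UMIs per 10000 in mice 1 to 4. An Omp UMI was found in 23.3% of HBC1 cells, beside 23.8% of Sus and 18.9% of Mv2 cells. However, 8 HBC1 cells (1, 2, 1 and 4 in mice 1 to 4) had 10 or more UMIs of these markers, against at most 9 in any other HBC1 cell, and they held 256 of the 300 Omp UMIs. They had a median of 8786 UMIs against 4563 in the others, and 4 were among the 4% of barcodes with the highest doublet score. All 8 had Krt5 and Trp63 UMIs. All 8 also had a receptor UMI, beside 20.8% of the other HBC1 cells. Without these 8 cells the mean of Omp was 0.428 in place of 3.21, while Krt5 was at 22.2 ± 3.00.

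The 6 markers of neuronal precursors and immature neurons summed to 2.30, 7.71, 2.93 and 8.14 UMIs per 10000 in HBC1 of mice 1 to 4, beside 4.20 ± 1.71 in HBC2 and 103 in INP. Of the 75 UMIs of Gap43, 1 of these markers, 1 HBC1 cell of mouse 4 held 40 and 1 of mouse 2 held 27. Sox11, another of the 6 markers and a transcription factor of neuronal precursors, was not limited to a few cells. A Sox11 UMI was found in 86 HBC1 cells (41.0%), beside 5.88% of HBC2, 11.6% of Sus and 4.77% of mOSN cells. Its levels were 1.60, 1.66, 1.30 and 2.35 in HBC1 and 0.381, 0.358, 0.418 and 2.10 in HBC2, so the groups overlapped in mouse 4 of HBC2. Among Krt5+ cells they did not, and the difference was 3.43.

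Of 18 transcription factors compared with HBC2, Trp63 and Sox9 were higher, beside 8.12% of all genes, and Foxa1, Elf3, Elf5, Ehf and Klf5 were lower, beside 5.52%. The epithelial factor Klf5 was at 1.64 ± 0.390 against 4.49 ± 0.617 and Ehf at 0.105 ± 0.0878 against 1.77 ± 0.266. Among Krt5+ cells the factors higher were Trp63, Sox9 and Otx2, and all but Elf5 of the lower ones stayed lower. The progenitor factors Sox2 (3.39 ± 0.540 against 2.67 ± 0.297) and Pax6 (2.20 ± 0.755 against 1.32 ± 0.572) did not meet the rule.

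Signalling genes were considered by pathway, and each count in this and the next lists stands beside the 8.12% of all genes that were higher than in HBC2 and the 5.52% that were lower. Of 8 Notch genes compared, 3 were higher in HBC1 and none was lower, namely the receptor Notch1 (1.62 ± 0.312 against 0.560 ± 0.0370) and the ligands Jag2 (2.81 ± 0.435 against 1.19 ± 0.248) and Dll1 (0.538 ± 0.212 against 0.194 ± 0.0376). The target Hes1 was at 6.79 ± 1.16 and 5.18 ± 0.602 and did not meet the rule, nor did any of the 7 Notch genes compared among Krt5+ cells. The Dll1 difference of 1.06 was below 2-fold, and its level below the minimum, without mouse 1 (0.95) or mouse 4 (0.94).

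Of 11 Wnt genes, the receptors Fzd1 and Fzd7 and the secreted inhibitor Sfrp1 were higher, and Lgr6, a receptor of R-spondins, was lower. Sfrp1 had 6.61, 6.77, 7.95 and 5.60 in HBC1 and 2.00 to 3.77 in HBC2. Lgr6 had no UMI in any HBC1 cell, whereas in HBC2 48.3% of cells held one, so it was at least 41.5-fold lower. Lgr6 was lower also among Krt5+ cells, whereas Sfrp1 no longer met the rule there. Fzd1, with a difference of 1.30, fell below the minimum level without mouse 2 or mouse 4, at 1.19 and 1.31.

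In the TGF-beta and BMP list, the ligand Bmp7 was higher and the target genes Id1 (1.75 ± 0.474 against 5.81 ± 0.857) and Id3 (0.571 ± 0.263 against 2.12 ± 0.392) were lower, of 9 compared. In the EGF family the ligand Hbegf, at means of 0.976 against 3.54, and the receptor Erbb3 were lower, of 4 compared. Id1, Id3 and Hbegf were also lower among Krt5+ cells, whereas Bmp7 and Erbb3 no longer met the rule there and Tgfb2 was higher. The Bmp7 difference of 1.13 was 0.78 without mouse 2, below 2-fold and with a level below the minimum, and Erbb3, at −1.66, fell below the minimum level without mouse 4, at −1.75.

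Transcripts of the division genes Mki67 and Top2a were scarce. The 18 cell cycle genes, Ccnd2 among them, summed to 13.4 ± 1.17 UMIs per 10000 in HBC1, 9.23 ± 0.183 in HBC2 and 35.0 in GBC. Of the 18 genes, 5 passed the minimum in the comparison with HBC2. Mki67 was at 0.00853 and Top2a at 0.0308 UMIs per 10000 in HBC1, beside 3.40 and 6.83 in GBC. Ccnd2, cyclin D2, was the 1 gene higher than in HBC2, with 8.63, 11.2, 9.38 and 7.39 against 3.12 to 4.13. It lay above all other types, and among Krt5+ cells the difference to HBC2 was 0.64 in place of 1.29 and no longer met the rule.

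Of 13 cell junction genes, the desmosomal Dsp, Dsc3 and Pkp3 were higher and the claudins Cldn3, Cldn4 and Cldn7, of tight junctions, were lower. Dsp was at 5.64 ± 1.28 against 2.17 ± 0.296 and Cldn7 at 0.306 ± 0.261 against 2.23 ± 0.275. Dsc3, Pkp3, Cldn4 and Cldn7 kept their direction and call among Krt5+ cells. Gja1, connexin 43, was the channel gene that stood above all other types, at 2.18 ± 0.705 against 0.378 ± 0.0541 in HBC2. With cells thinned to 2000 UMIs it no longer met that rule against all types.

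Of 10 MHC and interferon genes, Ifitm3 (18.1 ± 2.45 against 7.96 ± 0.601), Irf1 (2.72 ± 1.30 against 0.780 ± 0.152) and Isg15 were higher, and the median of the list was 0.98. Among Krt5+ cells Ifitm3 no longer met the rule, while B2m, Cd74, Irf1 and Isg15 were higher. Of 11 cytokine and NF-kB genes, Nfkb1, Cxcl14, Il6 and Csf1 were higher and Cxcl17 and Il33 were lower. The Nfkb1 difference of 1.05 was below 2-fold without mouse 2 (0.92) or mouse 4 (0.99). Cxcl14 fell below the minimum level without mouse 4 (2.48) and Csf1 without mouse 3 (1.45). Il33, an alarmin, was detected in 1 HBC1 cell (0.476%) and in 29.0% of all HBC2 cells. Among Krt5+ cells 9 genes of the list were compared. Cxcl14, Il6 and Csf1 were higher, beside 8.6% of all genes, and 0 were lower, beside 3.92%. Nfkb1, Cxcl17 and Il33 were thus no longer counted there.

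**Figure D4:**
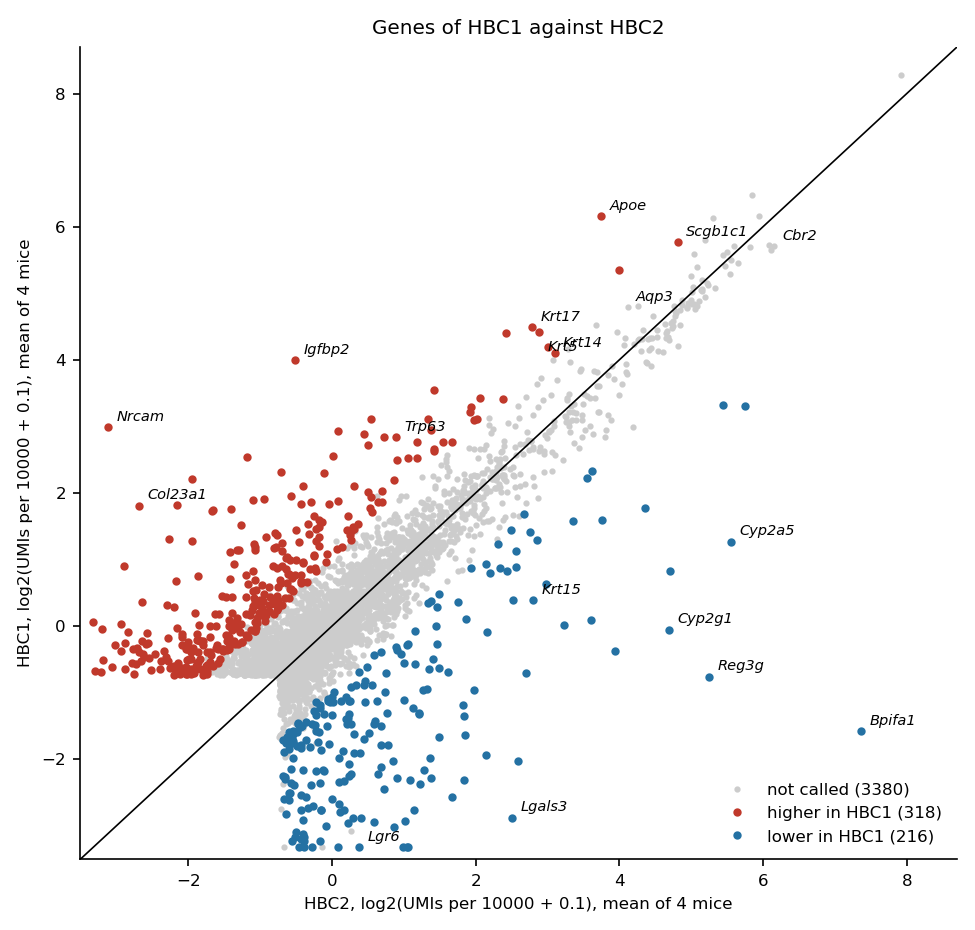
Mean level of each compared gene over 4 mice in HBC2 (x axis) and HBC1 (y axis), both on the scale of log2(UMIs per 10000 + 0.1), with the 318 genes higher and the 216 lower in HBC1 coloured and the line of equality drawn. Nrcam, Col23a1 and Igfbp2 lie far above the line, and Bpifa1, Reg3g, Cyp2g1 and Lgals3 far below it, of which Cyp2g1 changes sign among Krt5+ cells, to 1.26, where 1 HBC1 cell held 71 of the 75 UMIs.

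Scaling moved the balance of the 2 directions. With TMM factors in place of total UMIs the median over all genes shifted by −0.25 against HBC2, and 224 genes were higher and 302 lower, so that the share of higher genes among the calls went from 59.6% to 42.6%. The Trp63 difference was then 1.74 and that of Krt5 1.30. Krt14, Col17a1, Itgb4, Scgb1c1, Jag2, Klf4 and Ifitm3 were among the 12 of 86 named calls lost.

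The strongest losses against HBC2 not yet described were those of Lgals3 (galectin 3), at 0.0360 ± 0.0721 against 5.60 ± 2.34, Ly6a (0.0682 ± 0.136 against 3.08 ± 1.09), Nupr1 and Lyz2. Lgals3 was found in 1 HBC1 cell and in 64.2% of HBC2 cells, and S100a6, a calcium-binding protein named here after its values were seen, in 24.3% and 85.3%. Nupr1 and Lyz2 no longer met the rule among Krt5+ cells. Lgals3 and S100a6 were lower there as well, with differences of −5.87 and −4.47, and Basp1, a membrane protein of growing axons, was higher by 5.43.

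The other types lay at different distances from HBC1. The share of compared genes that differed in either direction was 13.6% against HBC2, 28.8% against Sus, 30.7% against Mv1 and 34.3% against Mv2. It was 38.9% against GBC and 49% against the immediate neuronal precursors (INP). Against the groups iOSN1 and iOSN2 of immature sensory neurons it was 51.7% and 55.8%, and against mOSN 53.3%. These counts depend on the number of cells behind each type, which ran from 124 (Mv1) to 10519 (mOSN).

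Against Sus, 704 of 4090 genes were higher in HBC1 (17.2%) and 472 were lower (11.5%). With TMM factors, which shifted the median by −0.27, 583 were higher and 626 lower. All 4 defining basal markers were higher, and Apoe by 7.65. The largest differences the other way were those of Wfdc18 (0.0491 ± 0.0568 against 268 ± 11.6), Rgs5 (0.195 ± 0.302 against 217 ± 21.3), Vmo1, Msln, Dcpp3 and Cyp2g1.

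Against Mv2, 738 of 4576 genes were higher (16.1%) and 832 were lower (18.2%), or 646 and 954 with TMM factors, which shifted the median by −0.12. Coch (0.0987 ± 0.0398 against 165), Stap1, Ascl3, Smbd1, Moxd1 and 4930469K13Rik were furthest below. Ascl3, a factor of ionocytes and microvillar cells, had no UMI in HBC1.

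HBC1 had the highest mean sum of early response genes of the 10 types. Such genes are induced within minutes and also by dissociation. The 18 genes of that list summed to 251, 153, 186 and 234 UMIs per 10000 in HBC1 of mice 1 to 4, and to 163 ± 17.5 in HBC2. The list summed to 154 ± 46.3 in Mv1, where mouse 1 reached 203, to 108 in Mv2, to 85.0 in Sus and to 17.1 in mOSN, so HBC1 overlapped HBC2 and Mv1. Fos was at 59.0, 32.6, 47.0 and 53.2 and Egr1 at 24.8, 18.4, 22.1 and 26.5. Klf4 alone of the 18 was higher than in HBC2, with a median of 0.15 over the list, and among Krt5+ cells 0 of the 18 met the rule. Their part in the other differences was not tested.

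The mice varied little in most HBC1 genes. Over the 737 genes with at least 2 UMIs per 10000 the median coefficient of variation between mice was 14.5%. The most variable were Cyp2a5 (107%), Stmn1 (86.3%) and Cd74 (83.4%), followed by Stoml3, Tuba1a, Atf5, Gfy and Atf3 (54.4%). Stoml3, Tuba1a, Atf5, Gfy and Stmn1 are neuronal genes. Without the 8 neuron-bearing cells Stoml3 was at 0.274 ± 0.160 in place of 3.65 ± 2.87, while Stmn1 stayed at 6.19 in mouse 4, where 1 cell with 9 neuron UMIs, just under the limit of 10, held 87 of the 246 Stmn1 UMIs of all HBC1 cells. Cd74, the invariant chain of MHC class II, had 2.10, 1.95, 8.49 and 2.59.

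Single cells were also examined. Per cell, Krt5, Trp63 and Krt14 together ran from 3.60 to 122 UMIs per 10000 with a median of 44.8, and the early response genes from 3.54 to 629 with a median of 212. The medians of the mice for the latter were 242, 158, 195 and 253. After thinning, and without the 8 neuron-bearing cells, 193 cells could be used with a median variance-to-mean ratio of 1.15 over the 737 genes, and 62 genes exceeded 2. These included Scgb1c1 (12.2), the chemokine Ccl20, the metallothionein Mt1, Cd74, Apoe and Fos (5.21).

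Clustering the 210 cells again gave 5 sub-clusters of 68, 62, 41, 31 and 8 cells, which were left unnamed. They rest on the same counts, so their genes are a description. The smallest held 7 of the 8 neuron-bearing cells and was led by Gng13 and Gap43. The largest was led by Ppp1r15a, with Atf3 at 19.0 UMIs per 10000, and the next by Cyp2g1, Iigp1, Adh7, Lcn2 and Cd74, the last at 7.01, though 1 cell held 71 of the 75 Cyp2g1 UMIs of HBC1. The cluster of 41 cells was led by Rn7sk and held Aox2 at 10.1. It was uneven by mouse, with 6, 10, 19 and 6 cells of mice 1 to 4, beside 74, 29, 53 and 54 in all of HBC1. That of 31 cells had Krt15 at 3.19 against at most 0.918 in the others, or 1.54 without the cell of mouse 2 that held 24 Krt15 UMIs. Krt5 was between 20.1 and 26.9 in the 4 larger sub-clusters and Trp63 between 6.84 and 8.12, so that the basal markers ran through all 4, and 9.57 and 3.67 in the smallest.

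**Figure D5:**
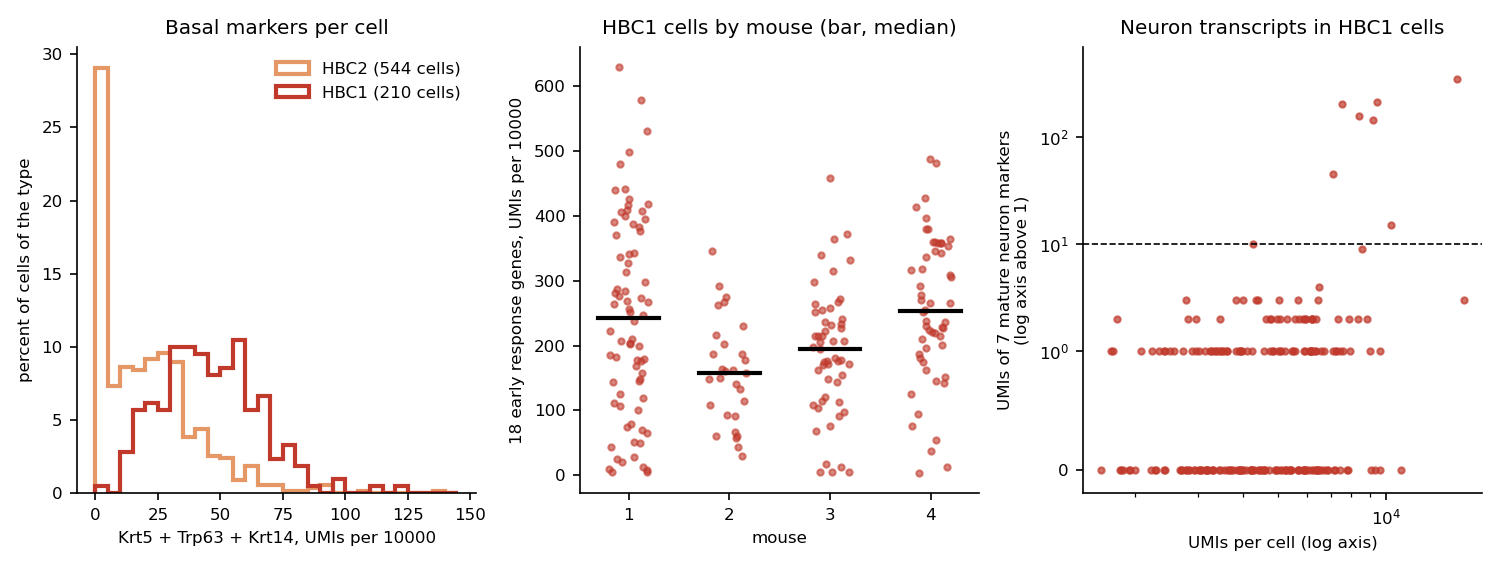
HBC1 cells one by one: the distribution of the summed Krt5, Trp63 and Krt14 level (left, percent of cells by UMIs per 10000), the early response genes by mouse with bars at the median (middle), and UMIs of 7 mature neuron markers against UMIs per cell, on log axes (right). The medians of the middle panel are 242, 158, 195 and 253, and the 8 cells with 10 or more neuron UMIs stand above the rest in the right panel.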

How the data were processed

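Single-cell libraries of the main olfactory epithelium of 4 mice were analysed from the deposited files. Per the labels and methods, the authors ran Cell Ranger 6.0.1 on 10x Genomics 3′ v3.1 libraries, against GRCm38 and Ensembl genes whose receptor 3′ ends had been revised. What the authors deposited per library is a matrix of UMI counts, neither scaled nor filtered further. The authors clustered the integrated mice in Seurat, removed blood, immune and high-mitochondrial clusters and then cells over 10% mitochondrial counts or under 1000 genes. The deposited cell table gives the clusters, the mitochondrial percent and the counts per cell. The annotation was used as deposited.

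Counts were summed per type and mouse and scaled to 10000 UMIs (python 3.11.15, numpy 2.4.6). The 1427 receptor genes were left out. A gene needed a mean of 0.5 UMI per 10000 in a compared type, a mean difference of at least 2-fold with a pseudocount of 0.1, and no overlap of the 4 mice. Since the clusters come from these counts, no p-value was computed. The procedure was tested on simulated data. TMM factors came from edgeR 4.0.16 (R 4.3.3). Alternatives were another pseudocount, other filters, TMM, leaving out each mouse, thinning, leaving out likely doublets and, added after seeing the data, leaving out neuron-bearing cells or limiting HBC2. Scrublet (scanpy 1.11.5) called 45 of 21809 barcodes as doublets, too few to have worked, so the top 4% by score in each mouse stood in for it, 8 of them HBC1 cells. Of 21755 barcode sequences 54 occurred in more than 1 library, and 1 HBC1 cell carried one. Total UMIs per library ran from 23157467 to 32382702. Wilson intervals and zero limits cover counting error only.

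The members, lists and tests were chosen with earlier results of these data known. Named genes were the defining markers, up to 4 members of each list that stood apart or were highest, the 20 furthest above all types, the 12 furthest each way against HBC2 and 6 against Sus and Mv2, the 10 most abundant and the 8 most variable over mice. Others (further list members and keratins, Adh7, Basp1, S100a6 and Aox2, the sub-cluster genes and the genes of highest spread between cells) were named after their values were seen.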

Additional observations from a re-analysis of the deposited data

Results flagged for a closer look

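Of 136 groups of 4 mice examined, over named genes and lists, 9 had 1 mouse far from the other 3 by Dixon's criterion, where chance gives about 1 in 20. In HBC1, mouse 4 was high for Cyp2g1 (3.34 UMIs per 10000), Sec14l3 (2.31) and Wfdc2 (5.08). A single cell of that mouse held 71 of 75 Cyp2g1 and 47 of 58 Sec14l3 UMIs. Mouse 1 was high for Errfi1 (2.20), Ifitm3 (21.8) and Abca4 (5.97), and mouse 3 for Cd74 (8.49), of which 1 cell held 57 of 414 UMIs. Mouse 2 was low for Slc29a1 (2.09). The summed EGF receptor family list was low in mouse 3, at 4.64, while the other mice lay between 4.90 and 4.91.

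Outside the retained cells, 27 removed barcodes carried a UMI of Krt5, Trp63 and Krt14 each, out of 472 barcodes with all 3 in the 4 libraries. Of these 27, 25 came from the joint cluster of horizontal basal cells of the first clustering and 2 from immune clusters. They had a median of 1538 UMIs, and 25 were over 10% mitochondrial counts or under 1000 genes.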

How the results depend on the processing

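With a pseudocount of 0.5 the genes above all other types numbered 87, those higher and lower than HBC2 145 and 133, those higher and lower than Sus 443 and 285, and those higher and lower than Mv2 518 and 462, where the higher genes became the larger number. With a minimum of 2 UMIs per 10000 the counts were 69 above all types, 100 and 67 against HBC2, 211 and 158 against Sus and 269 and 278 against Mv2. With no minimum they were 475 higher and 455 lower than HBC2, 1201 and 751 against Sus and 1210 and 1325 against Mv2. Fewer or more genes tested and a larger pseudocount move such counts by construction. Leaving out 1 mouse gave 164 to 188 genes above all types, 313 to 355 higher and 225 to 234 lower than HBC2, 681 to 734 and 476 to 502 against Sus, 729 to 773 and 834 to 851 against Mv2, and an HBC1 share of 1.20% to 1.52%. With neurons and immediate neuronal precursors out of the denominator the share was 6.48%.

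Of the 86 named genes counted as higher or lower than HBC2, 4 changed sign, all of them in the alternatives that limit HBC2. Of the other 43 named genes, which had not met the rule, 16 changed sign under at least 1 alternative. With Krt5+ cells only, and without the 132 HBC2 cells of the first sustentacular cluster, the differences were 1.26 and 1.31 for Cyp2g1, 0.46 and 0.52 for Elf5, 0.85 and 0.84 for Cyp1a2 and 0.39 and 0.44 for Vmo1. In HBC1 1 cell of mouse 4 held 71 of the 75 UMIs of Cyp2g1 and 25 of the 25 of Cyp1a2. These alternatives also took 29 of the 86 named calls against HBC2, Krt5, Lamb3 and Notch1 among them. No sign changed among 24 named differences to the highest other type, but genes named for a large difference could hardly change sign. Of 40 named genes counted above all other types, 9 no longer met that rule with Krt5+ cells only. They were Krt5, Krt14, Lamb3, Col17a1, Itgb4, Jag2, Sfrp1, Ccnd2 and Ifitm3.

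Shares of HBC1 cells, as means of mice, depended on depth and on the minimum. With at least 2 UMIs, and with cells thinned, they were 94.5% and 95.8% for Krt5, 74.5% and 71.2% for Trp63, 6.55% and 11.4% for Krt15, 4.67% and 13.6% for Omp and 99.2% and 99.5% for Cbr2. With at least 2 UMIs Krt14 was in 83.1% and Scgb1c1 in 91.3%. Mouse 2 had the fewest HBC1 cells, 29.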
